A study of Mus musculus with 203 samples.

Results

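The 9 genes described here encode chemokines and chemokine receptors of monocytes: the ligands Ccl2, Ccl7, Ccl8, Ccl12, Ccl3, Ccl4 and Ccl9 and the receptors Ccr1 and Ccr2. They were taken by name from a table of 43346 gene identifiers after the Ensembl identifiers had been matched to mouse symbols, and were followed across 20 groups defined by week, tissue and exposure. All 9 had counts above 0 in every library, and all 9 passed the filter on low counts in each fit.

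The study measured RNA of the lungs of female Balb/C mice by bulk RNA-seq, with the airways and the parenchyma of the lung sequenced as separate libraries. At 3 weeks, mice had received house dust mite extract (HDM), an allergen source, or the saline vehicle PBS on 5 days a week for 3 weeks. At 11 weeks there were 8 exposures, with intranasal HDM or PBS given 3 times a week from week 4 to week 11: PBS.AIR (PBS and room air), HDM.AIR (HDM and room air), PBS.CS (PBS and cigarette smoke, given 2 times a day on 5 days a week for 8 weeks), HDM.CS (HDM and smoke), and each of these 4 with dexamethasone (DEX), a glucocorticoid, in week 11. Each group held 10 libraries, except the PBS groups at 3 weeks with 11 airway and 12 parenchyma libraries. The labels give the mice of every group an age of 18 to 20 weeks. The labels do not tie an airway library to a parenchyma library of one mouse, so all libraries were compared as separate samples and the p-values measure the spread between these libraries.

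Chemokines are small secreted proteins that draw leukocytes along a gradient through G protein-coupled receptors. CCR2, the receptor of CCL2, CCL7 and CCL12, brings classical monocytes out of the bone marrow and into inflamed tissue, while mouse CCL8 is best known as a ligand of CCR8 on T helper 2 cells. CCL3 and CCL9 are ligands of CCR1, which monocytes and neutrophils carry, and CCL4 is a close relative of CCL3. In the allergic or smoke-exposed lung these ligands come mainly from macrophages, recruited monocytes and epithelium.

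Values are CPM, counts relative to library size scaled by the trimmed mean of M-values (TMM), and each group is given by its lowest, median and highest library. Differences are log2 fold changes (log2FC) with their standard error (SE), from a limma-voom fit over all genes that passed the filter. A gene was taken as changed at an adjusted p under 0.05, and as upregulated or downregulated where its log2FC was also at least 1 or at most -1. Library totals ran from 13003154 to 40240733 counts, with a median of 28090684. The log2 ratio of airway to alveolar epithelial marker counts was -0.71 to 3.92 over the airway libraries and -0.72 to 1.30 over the parenchyma libraries. Of the airway libraries, 43 lay within the parenchyma range and 9 lay at or under the parenchyma median of 0.055. Of those 9, 5 were HDM.AIR.DEX libraries and 2 were HDM.AIR libraries.

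The 7 ligand genes lie on chromosome 11 of the mm10 build and both receptor genes on chromosome 9, by GENCODE M21. Ccl2 (chr11:82035571-82037453, plus strand), Ccl7 (chr11:82045712-82047525, plus strand), Ccl12 (chr11:82101845-82103400, plus strand) and Ccl8 (chr11:82115185-82116799, plus strand) follow each other, with 8258, 54319 and 11784 bp between neighbours. The genes of the other 3 ligands sit 1456119 bp further on: Ccl9 (chr11:83572919-83578636, minus strand), Ccl3 (chr11:83647844-83649355, minus strand) and Ccl4 (chr11:83662584-83664683, plus strand). Ccr1 (chr9:123962124-123968692, minus strand) and Ccr2 (chr9:124101950-124113557, plus strand) lie 133257 bp apart.

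Promoter sequence was available for 6 of the 9 genes in RefSeq (GRCm38.p6). The 250 bases upstream of the start are shown for 4 ligands, since Ccl8 and Ccl12 are neighbours that were lower with DEX in 7 and 5 of 8 comparisons, while Ccl3 and Ccl9 rose with HDM and with smoke in both tissues. Capitals mark matches to GAGGAA, the core of a site for PU.1, the myeloid transcription factor, on either strand, and, in Ccl9, to the AP-1 motif TGANTCA and an NF-kB motif.
Ccl8 (chr11:82114935-82115184, plus strand): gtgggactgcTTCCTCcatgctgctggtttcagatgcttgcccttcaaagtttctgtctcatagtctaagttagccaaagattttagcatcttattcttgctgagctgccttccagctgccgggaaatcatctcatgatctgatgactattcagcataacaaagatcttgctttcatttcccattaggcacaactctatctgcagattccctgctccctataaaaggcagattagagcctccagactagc
Ccl12 (chr11:82101595-82101844, plus strand): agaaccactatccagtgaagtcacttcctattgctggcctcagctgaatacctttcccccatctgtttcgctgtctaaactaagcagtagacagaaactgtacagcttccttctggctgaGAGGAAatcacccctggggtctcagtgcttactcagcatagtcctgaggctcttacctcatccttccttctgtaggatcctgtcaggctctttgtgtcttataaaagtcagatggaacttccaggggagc
Ccl3 (chr11:83649379-83649628, minus strand): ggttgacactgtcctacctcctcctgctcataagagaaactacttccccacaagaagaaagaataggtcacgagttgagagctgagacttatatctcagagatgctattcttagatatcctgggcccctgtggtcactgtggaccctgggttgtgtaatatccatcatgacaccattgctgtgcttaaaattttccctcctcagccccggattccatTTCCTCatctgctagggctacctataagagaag
Ccl9 (chr11:83578637-83578886, minus strand): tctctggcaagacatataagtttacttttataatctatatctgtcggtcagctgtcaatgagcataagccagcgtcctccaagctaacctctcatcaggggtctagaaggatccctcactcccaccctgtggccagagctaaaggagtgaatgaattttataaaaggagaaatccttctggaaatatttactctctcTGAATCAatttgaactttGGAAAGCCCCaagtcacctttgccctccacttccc

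Counted from the start, with -1 as the base before it, the PU.1 core lay at -240 to -235 in Ccl8 and at -130 to -125 in Ccl12. In Ccl3 it lay at -33 to -28, from a RefSeq start that did not match the first bases of the GENCODE transcript. A further copy lay at -129 to -124 of Ccr1. The core occurs in 23.4% of 32536 RefSeq promoter windows of this length, so its presence in 4 of 6 windows is a description of these letters and not a site. The Ccl9 window held the NF-kB motif at -35 to -26, found in 3.92% of windows, and the AP-1 motif at -53 to -47, found in 6.73%. On both strands, none of the 6 windows held the letters of the STAT6 motif (5.89% of windows), the GAS motif TTCNNNGAA (7.04%), the interferon-stimulated response element (2.98%) or the glucocorticoid response element core ACANNNTGT (5.82%). The Ccr2 window (chr9:124101933-124102182, plus strand) runs past the GENCODE start of the gene at 124101950. Most of that window therefore lies within the annotated gene and not upstream of it.

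The levels of the genes differed widely when set per kb of exon. In PBS-exposed parenchyma at 3 weeks the order of median levels was Ccl9 (14.4 CPM per kb), Ccr2 (13.1), Ccl8 (9.69), Ccr1 (8.99) and then the other 5 ligands, down to Ccl7 (1.61). In HDM-exposed parenchyma Ccl8 stood first at a median of 669.6 CPM per kb and Ccl9 second at 351.0, followed by Ccr1 at 87.3, while Ccl2 stood last at 26.8. Over the 20 groups, 8 of the 9 genes had their highest median CPM in HDM-exposed parenchyma at 3 weeks, and Ccl8 had it in HDM-exposed airways at 3 weeks. Neighbouring groups in the order of medians overlapped in their libraries for every gene, apart from 1 step of Ccl8, between the second and the third group.

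**Figure D1:**
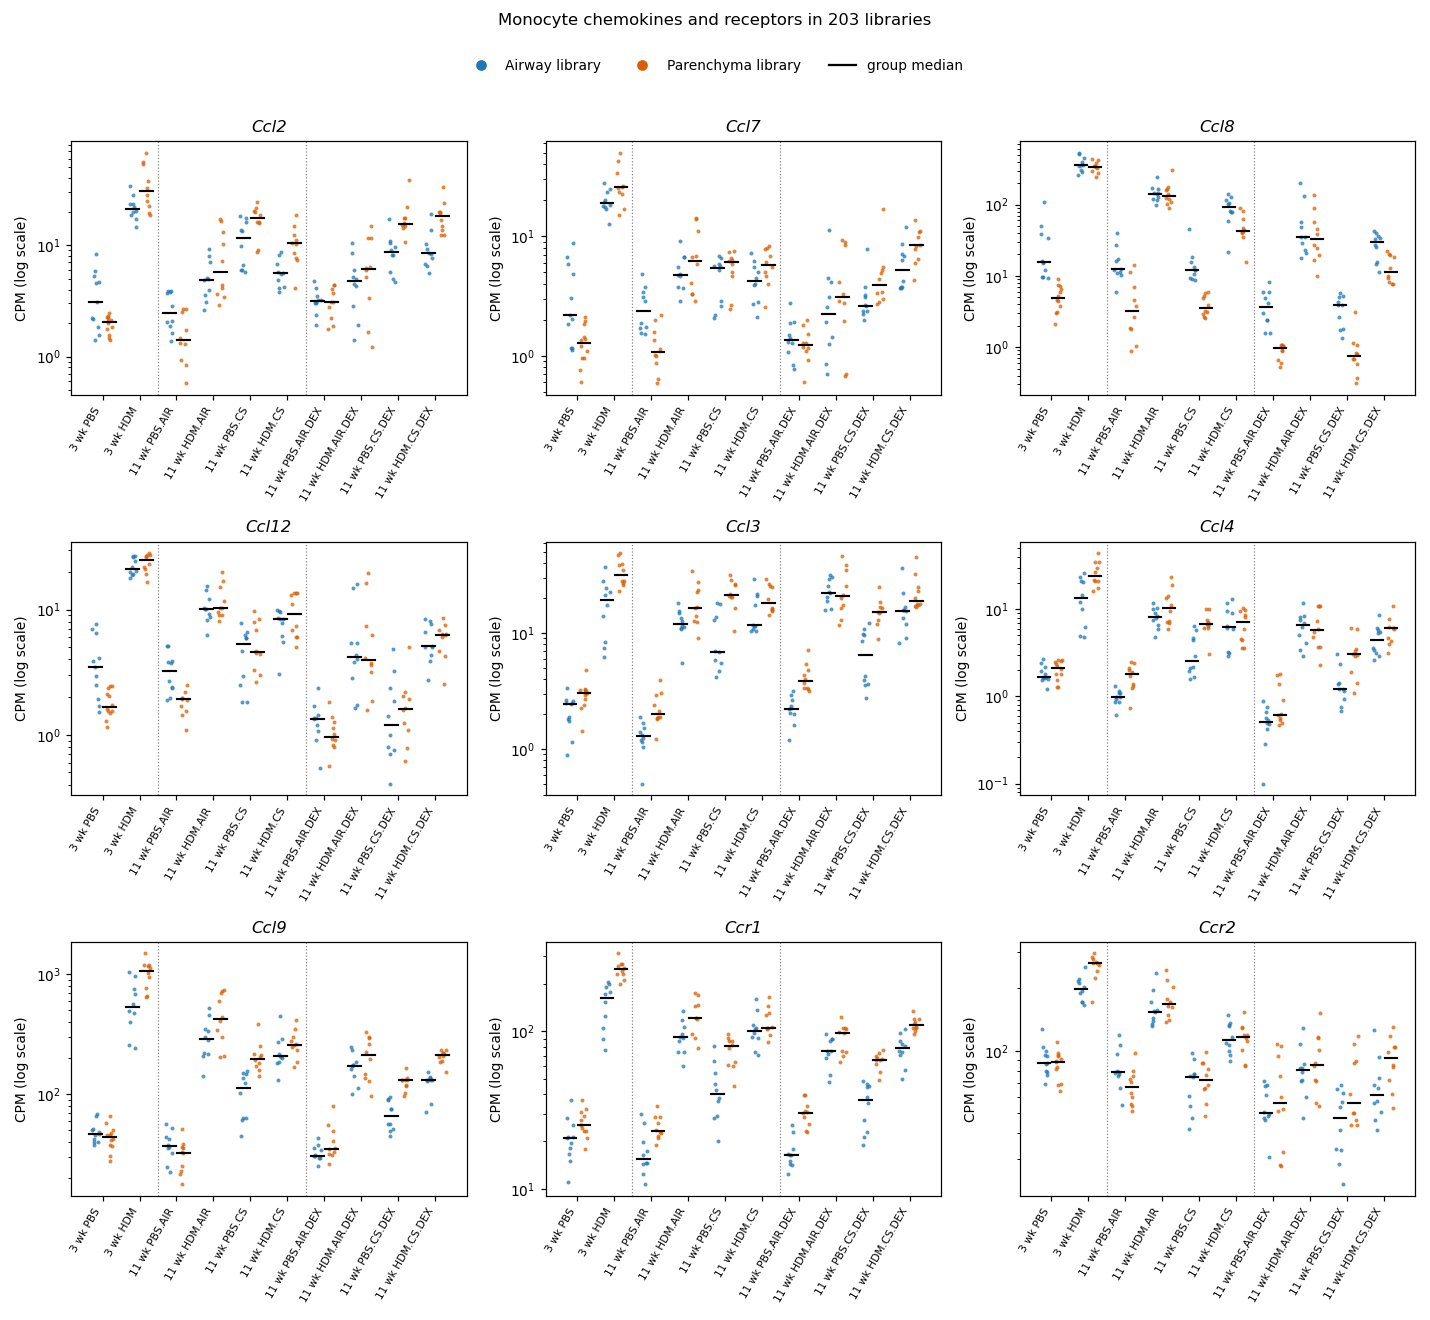
CPM of the 9 genes on a log axis in every library, by exposure, with airway libraries in blue, parenchyma libraries in orange and the median of each group as a black line. The HDM groups at 3 weeks hold the 2 highest medians of 8 genes and, for Ccl3, the highest in the parenchyma alone. In the smoke groups without HDM, Ccl2 and Ccl3 lie above PBS.AIR and Ccl8 does not.

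The first comparison asked what 3 weeks of HDM did in each compartment. All 9 genes were upregulated in HDM-exposed airways and in HDM-exposed parenchyma, and for all 9 genes the HDM-exposed and PBS-exposed libraries did not overlap in either tissue. Among all 17377 genes tested, 12.1% were upregulated in the airways and 14.5% in the parenchyma. Overlap of libraries was counted for the 9 genes alone, here and below, so no share of all genes stands beside it. The median log2FC of the 9 genes was 2.75 in the airways, where the median of all genes was -0.07, and 3.64 in the parenchyma, where the median of all genes was -0.13.

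Ccl8 moved most. Its CPM was 9.48, 15.5 and 110.5 in PBS-exposed airways and 260.1, 360.7 and 536.5 in HDM-exposed airways, a log2FC of 4.09 (SE 0.28, adjusted p = 2.4e-16), or 17.1-fold. In the parenchyma it was 2.14, 4.95 and 8.93 with PBS and 246.5, 342.2 and 436.9 with HDM, a log2FC of 6.06 (SE 0.40, adjusted p = 2.3e-17), or 66.6-fold. The PBS airway library at 110.5 stood well above the others of its group and was still below every HDM-exposed library.

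Ccl2, the best known ligand of CCR2, ran from 1.42 through 2.05 to 2.48 CPM in PBS-exposed parenchyma and from 18.8 through 30.5 to 67.7 in HDM-exposed parenchyma, a log2FC of 3.99. Its airway values were 1.4, 3.08 and 8.27 with PBS and 14.5, 21 and 34.2 with HDM, a log2FC of 2.70. Ccl7 (monocyte chemotactic protein 3) had log2FCs of 2.75 in the airways and 4.31 in the parenchyma, and Ccl12, a CCR2 ligand found in mice, had 2.62 and 3.64. Of these 4 clustered ligands, then, each was above its controls in every HDM-exposed library of both tissues.

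Among Ccl3, Ccl4 and Ccl9, Ccl9 had the highest log2FC in both tissues. Its level stood at 28.1, 43.8 and 65.8 CPM in PBS-exposed parenchyma and at 642.3, 1069 and 1485 with HDM, a log2FC of 4.45 (SE 0.19, adjusted p = 1.1e-22), or 21.8-fold. In the airways it went from 38.1, 46.7 and 68.8 to 240.8, 528.4 and 1045, a log2FC of 3.42 (SE 0.18, adjusted p = 1.7e-19). Ccl3 and Ccl4, the macrophage inflammatory proteins 1 alpha and 1 beta, had log2FCs of 2.96 and 2.71 in the airways and 3.45 and 3.59 in the parenchyma.

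Both receptors rose too, Ccr2 by less than any of the ligands. Ccr1 was at 18.0, 25.5 and 36.6 CPM in PBS-exposed parenchyma and at 201.1, 247.2 and 312.3 with HDM, a log2FC of 3.17, and its airway log2FC was 2.76. Ccr2 was at 64.3, 88.7 and 110.7 in PBS-exposed parenchyma and at 171.1, 265.3 and 294.0 with HDM, a log2FC of 1.51 (SE 0.10, adjusted p = 7.4e-18), or 2.84-fold. Its airway log2FC was 1.11 (SE 0.10, adjusted p = 2e-13), or 2.16-fold. The order of the log2FCs within the set was not itself tested.

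The counts of Ccr2 were not whole in 99% of libraries, so the division of reads that match several genes bears on its values.

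The HDM effect was smaller in the airways than in the parenchyma for 6 of the 9 genes in the test of the difference itself, where 6.43% of all genes were lower. The difference in log2FC was -1.96 for Ccl8 (adjusted p = 0.0053), -1.55 for Ccl7 (0.018), -1.29 for Ccl2 (0.036), -1.03 for Ccl9 (0.0066), -1.02 for Ccl12 (0.013) and -0.39 for Ccr2 (0.041). The difference missed the threshold for Ccl3, Ccl4 and Ccr1, at -0.49, -0.88 and -0.41. The differences of Ccl2, Ccl7 and Ccr2 are the least secure: with a stricter filter, at 10 CPM, adjusted p was 0.16 for Ccl2 and 0.11 for Ccl7, and with the libraries of both time points in 1 fit it was 0.25 for Ccr2.

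The tissues also differed without HDM. In PBS-exposed mice Ccl8 was higher in the airways than in the parenchyma by a log2FC of 2.16 (adjusted p = 1.3e-05), with no overlap between the libraries. Ccl7 and Ccl12 were also higher there, at 1.17 and 0.98, while the other 6 genes did not pass the test. In this comparison 24.3% of all genes were higher in the airways. At 11 weeks, in PBS.AIR mice, Ccl8 and Ccl7 were higher in the airways by 2.09 and 1.10 (26.3% of all genes higher) and Ccr1 was lower by a log2FC of -0.50 (30.1% lower).

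Several marker lists were compared with the HDM effect at 3 weeks, with markers counted at an adjusted p under 0.05. By that rule, 5923 of all 17377 genes rose and 7035 fell in the airways, and 5808 rose and 7691 fell in the parenchyma. Of 9 classical monocyte markers, 7 rose in HDM-exposed airways and 9 in HDM-exposed parenchyma, and their summed level in the parenchyma was 363.5 to 1104 CPM with PBS and 3702 to 25340 CPM with HDM. A summed level, here and below, is weighted to the most abundant markers, so it can move apart from the count of markers. All 7 neutrophil markers rose in both tissues, and of 8 interstitial macrophage markers 5 rose and 1 fell in each. In the airways, 6 of 6 cardiac muscle markers fell with HDM, from a summed level of 319.7 to 5014 CPM to one of 40.2 to 1032 CPM. Of 7 nonclassical monocyte markers, 3 rose and 3 fell in the airways and 3 rose and 2 fell in the parenchyma. All 6 T cell markers rose in both tissues, and of 4 B cell markers 4 rose in the airways and 3 in the parenchyma. Of 4 eosinophil markers tested, 4 rose in the airways and 3 in the parenchyma, and of 8 alveolar macrophage markers 3 rose and 2 fell, and 4 rose and 1 fell. Of 7 airway epithelial markers, 4 fell in the airways, where their summed median was 65370 CPM with PBS and 21970 CPM with HDM. No gene of the monocyte, neutrophil, interstitial macrophage and cardiac lists was at 0 throughout a group. Of the eosinophil list, Epx was at 0 throughout PBS.CS airways and PBS.CS parenchyma at 11 weeks. In bulk tissue, fewer cells of a type and less RNA per cell cannot be told apart, and the part of these markers in the results was not tested.

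**Figure D2:**
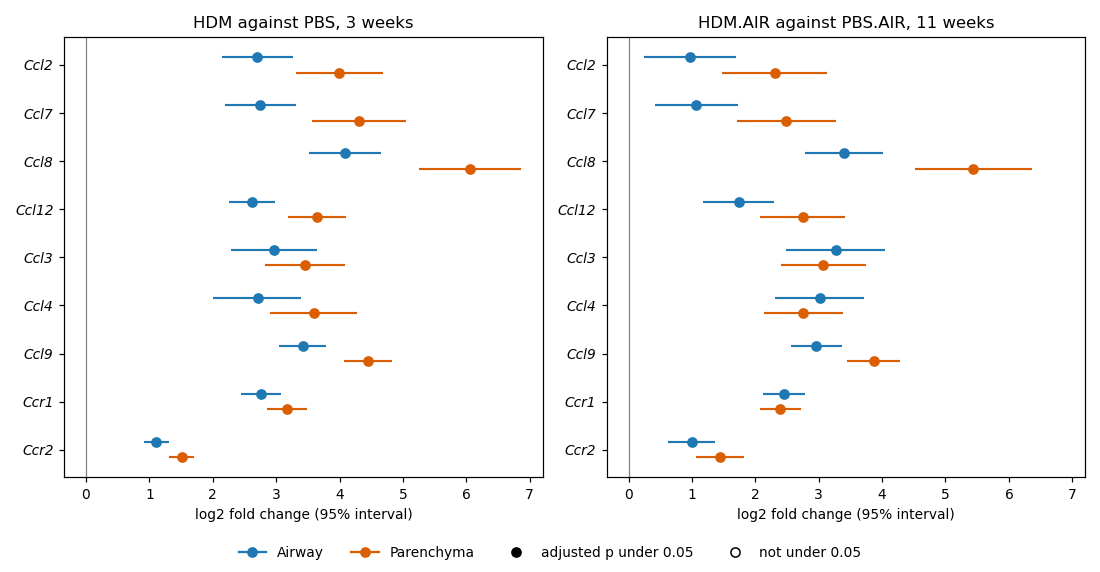
log2FC of HDM against its PBS control for the 9 genes, with 95% intervals, at 3 weeks (left) and 11 weeks (right), in airways (blue) and parenchyma (orange); filled points passed an adjusted p under 0.05. All points are above 0, Ccl8 is the furthest from 0 in both tissues at both times, and Ccr2 is the nearest to 0 at 3 weeks.

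At 11 weeks, HDM.AIR was compared with PBS.AIR, after HDM had been continued. All 9 genes were higher with HDM in both tissues. In the parenchyma all 9 were upregulated, where 13.0% of all 18250 genes were, with no overlap between the groups. In the airways all 9 changed (31.3% of all genes higher) and 7 were upregulated (10.6%): Ccl2 and Ccr2 had log2FCs of 0.97 and 1.00, the latter just under the limit before rounding. The median log2FC was 2.45 in the airways and 2.75 in the parenchyma, against 0.00 and 0.05 for all genes.

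Ccl8 was again furthest from its control. It was at 0.883, 3.20 and 14.4 CPM in PBS.AIR parenchyma and at 88.7, 130.9 and 307.8 in HDM.AIR parenchyma, a log2FC of 5.44 (SE 0.46, adjusted p = 2.7e-21), or 43.5-fold. In the airways it was at 5.91, 12.4 and 40.6 with PBS.AIR and at 97.6, 143.03 and 244.2 with HDM.AIR, a log2FC of 3.40 (SE 0.31, adjusted p = 2.8e-19). Ccl9 had log2FCs of 2.96 (adjusted p = 3.3e-28) in the airways and 3.87 (1.5e-36) in the parenchyma.

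Ccl2 and Ccl7 showed the weakest separation in the airways. Ccl2 was at 1.39, 2.46 and 3.91 CPM with PBS.AIR and at 2.59, 4.9 and 9.16 with HDM.AIR, so the groups overlapped, and its adjusted p of 0.017 rose to 0.057 without the 9 airway libraries of low epithelial ratio and to 0.075 with the stricter filter. Ccl7 had a log2FC of 1.07 (adjusted p = 0.0029), also with overlap. In the parenchyma the log2FCs of Ccl2 and Ccl7 were 2.31 and 2.49 without overlap. Ccl3, Ccl4 and Ccr1 had log2FCs of 3.27, 3.02 and 2.45 in the airways and 3.07, 2.76 and 2.39 in the parenchyma.

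The median epithelial log2 ratio of the airway libraries was 2.31 in PBS.AIR and 0.707 in HDM.AIR, so these airway groups differed in this ratio of marker RNA. The airway epithelial markers had summed medians of 57640 and 19190 CPM there, and the alveolar markers 11630 and 10750 CPM. Cell makeup and RNA per cell cannot be told apart here. The part of this ratio in the airway results was not tested beyond leaving out the 9 libraries. The HDM effect was lower in the airways than in the parenchyma for Ccl8 (by a log2FC of -2.05, adjusted p = 0.0032), Ccl7 (-1.42, 0.029) and Ccl9 (-0.91, 0.014), where 14.9% of all genes were lower. The values for Ccl2 and Ccl12 were -1.34 and -1.01, at adjusted p of 0.061 and 0.075.

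Between the 2 time points the HDM effect of some genes was smaller at 11 weeks, in a fit of all libraries. In the airways it was smaller for Ccl2 (by a log2FC of -1.79, adjusted p = 0.0018), Ccl7 (-1.74, 0.00089) and Ccl12 (-0.94, 0.039), where 13.9% of all 18528 genes were lower. The call of Ccl12 was lost with edgeR (adjusted p = 0.11) and DESeq2 (0.10). In the parenchyma it was smaller for Ccl2 (-1.81, 0.004), Ccl7 (-1.94, 0.0018), Ccr1 (-0.91, 0.00065) and Ccl9 (-0.70, 0.046), where 20.9% of all genes were lower, and the call of Ccl9 was lost with edgeR (0.053). For Ccl8 the differences were -0.75 and -0.73 and missed the threshold. Dosing and time since the start of exposure both differ between the 2 time points and cannot be told apart.

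Cigarette smoke without HDM was compared with PBS.AIR, which also served as the control of HDM.AIR. Smoke divided the set: 7 genes were upregulated in the parenchyma, where 4.21% of all genes were, and 5 in the airways, where 1.73% were. Ccl8 and Ccr2 passed the test in neither tissue. The 7 genes of the parenchyma did not overlap with their controls, and in the airways this held for 3 genes, Ccl2, Ccl3 and Ccl4.

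Ccl2 was at 0.576, 1.4 and 2.69 CPM in PBS.AIR parenchyma and at 8.71, 17.4 and 24.5 in PBS.CS parenchyma, a log2FC of 3.52 (SE 0.39, adjusted p = 1.4e-13), or 11.5-fold. Its airway values were 1.39, 2.46 and 3.91 with air and 5.76, 11.7 and 18.4 with smoke, a log2FC of 2.02 (SE 0.33, adjusted p = 1.1e-06), or 4.05-fold. Ccl7 had a log2FC of 2.16 (adjusted p = 4.9e-06) in the parenchyma and of 0.78 in the airways, where it missed the threshold (0.11). Ccl12 had 1.5 (0.00047) in the parenchyma and 0.39 (0.48) in the airways.

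Ccl8, the neighbour of Ccl12, was at 0.883, 3.20 and 14.4 CPM in PBS.AIR parenchyma and at 2.53, 3.56 and 5.89 in PBS.CS parenchyma. The groups lay over each other, and the log2FC was 0.21 with a 95% interval of -0.94 to 1.35. In the airways it was -0.07, with an interval of -0.74 to 0.61. These intervals leave out changes of the size seen with HDM but not a change of 2-fold in the parenchyma.

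Ccl3, Ccl4 and Ccl9 rose in both tissues. Ccl3 was at 1.22, 2.00 and 3.90 CPM in PBS.AIR parenchyma and at 10.3, 21.2 and 31.4 in PBS.CS parenchyma, a log2FC of 3.30 (adjusted p = 1.9e-15), or 9.88-fold, and its airway log2FC was 2.73 (4.3e-08). Ccl9 was at 17.9, 32.6 and 51.6 in PBS.AIR parenchyma and at 140.97, 197.6 and 386.6 in PBS.CS parenchyma, a log2FC of 2.78 (1.1e-24), or 6.84-fold. Its airway log2FC was 1.37 (1.1e-08), and Ccl4 had 1.57 in the airways and 2.03 in the parenchyma.

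Of the receptors, Ccr1 rose with smoke, by a log2FC of 1.26 in the airways and 1.6 in the parenchyma. Ccr2 was at 51, 66.8 and 97.1 CPM in PBS.AIR parenchyma and at 48.5, 72.2 and 98.4 in PBS.CS parenchyma. Its log2FC was 0.12 there, with a 95% interval of -0.24 to 0.49, and -0.27 in the airways, with an interval of -0.64 to 0.09. The smoke effect was lower in the airways than in the parenchyma for 1 gene, Ccl9 (by a log2FC of -1.41, adjusted p = 0.00069), where 3.04% of all genes were lower, and the value for Ccl2 was -1.50 (0.078).

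At an adjusted p under 0.05, 1398 of all 18250 genes rose with smoke in the airways and 3237 in the parenchyma. Of the 9 classical monocyte markers, 3 rose with smoke in the airways and 5 in the parenchyma, where their summed level was 570.3 to 994.1 CPM with air and 1640 to 2832 CPM with smoke. Of 7 neutrophil markers, 7 rose in the airways and 6 in the parenchyma, and 5 of 8 interstitial macrophage markers rose in each tissue. The part of these markers in the smoke results was not tested.

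Smoke added to HDM was then compared with HDM alone, HDM.CS against HDM.AIR. No gene of the set was higher: limma-voom gave 0 genes higher in either tissue, where 6.07% of all genes were higher in the airways and 10.0% in the parenchyma. It also gave 0 at an unadjusted p under 0.05, and edgeR and DESeq2 gave 0. In the parenchyma 4 genes were lower, where 14.1% of all genes were: Ccl8 by a log2FC of -1.66 (SE 0.28, adjusted p = 1e-06), Ccl4 by -0.77 (0.006), Ccl9 by -0.72 (0.0078) and Ccr2 by -0.64 (0.0076). Ccl8 was at 88.7, 130.9 and 307.8 CPM with HDM alone and at 15.6, 43.1 and 90.5 with HDM and smoke, 3.15-fold lower, with a slight overlap of the ranges.

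In the airways 1 gene was lower, Ccl8 (log2FC -0.82, adjusted p = 0.029), where 10.1% of all genes were, and neither edgeR (0.14) nor DESeq2 (0.17) called it. Ccl2 was at 2.59, 4.9 and 9.16 CPM with HDM alone and at 3.77, 5.58 and 8.62 with HDM and smoke, with wide overlap, and its log2FC was 0.20. Ccr2 had -0.49 (adjusted p = 0.07).

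In the test of the interaction, the combined exposure lay below the sum of the separate log2FCs for all 9 genes in the parenchyma, where 18.7% of all genes were lower, and for 5 in the airways, where 11.4% were. In the parenchyma the interaction was -3.50 for Ccl9 (adjusted p = 1.5e-19), -3.15 for Ccl3 (3.7e-11), -3.02 for Ccl2 (9.5e-08), -2.80 for Ccl4 (3.3e-09) and -2.37 for Ccl7 (3.2e-05). It was -1.91 for Ccl12 (0.00013), -1.86 for Ccl8 (0.015), -1.73 for Ccr1 (1.5e-10) and -0.76 for Ccr2 (0.017). The call of Ccl8 was lost with the stricter filter (0.099).

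In the airways the 5 genes were Ccl3 (-2.44, adjusted p = 3.1e-05), Ccl4 (-1.90, 0.00099), Ccl2 (-1.82, 0.002), Ccl9 (-1.73, 2.2e-06) and Ccr1 (-1.13, 0.0001). The levels behind these values differed between genes. Ccl9 had medians of 32.6 CPM with neither exposure, 424.3 with HDM, 197.6 with smoke and 258.4 with both in the parenchyma, while Ccl2 had 1.4, 5.79, 17.4 and 10.4. For both genes the combined median lay between those of HDM and of smoke, of which HDM was the higher for Ccl9 and smoke for Ccl2. For Ccl8, at 3.20, 130.9, 3.56 and 43.1, it also lay between them, but with smoke alone at the level of the control. Of the 9 classical monocyte markers, 5 were lower in HDM.CS than in HDM.AIR parenchyma (14.1% of all genes lower) and none was higher (10.0% higher). The median of their summed level was nevertheless 2785 CPM in HDM.AIR and 3573 CPM in HDM.CS. Their part in these results was not tested.

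**Figure D3:**
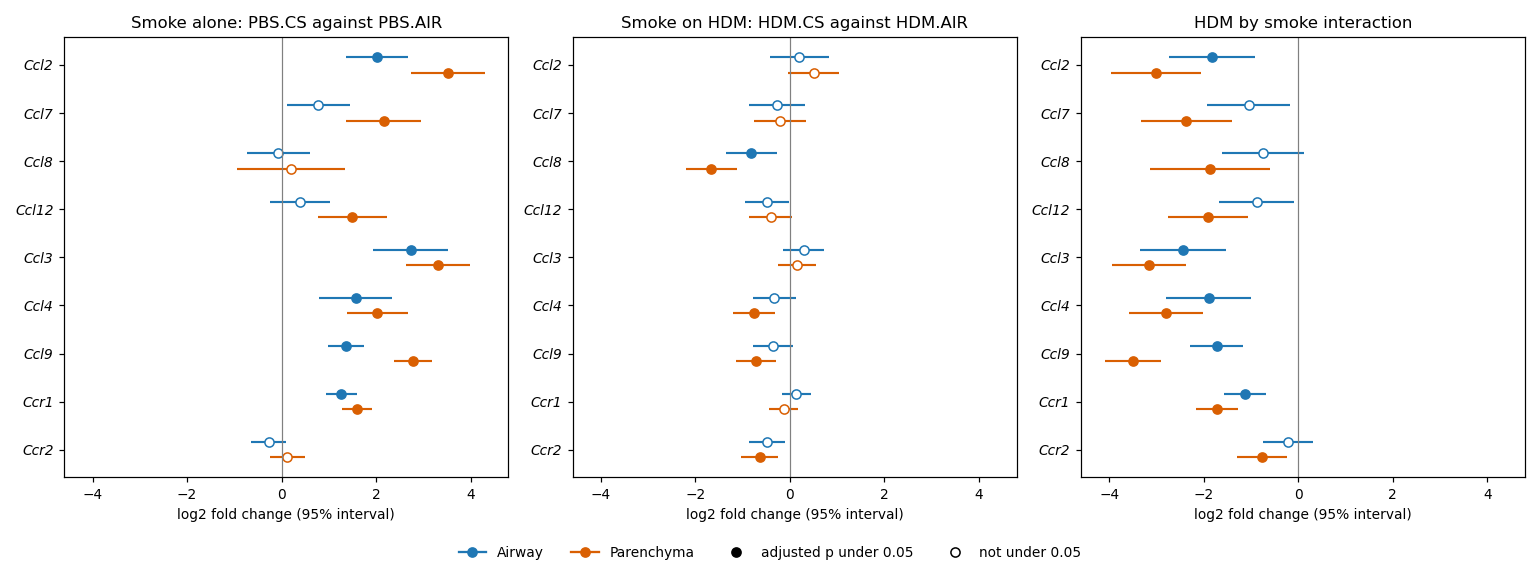
log2FC with 95% intervals for smoke alone (left), smoke added to HDM (middle) and the HDM by smoke interaction (right), in airways (blue) and parenchyma (orange); filled points passed an adjusted p under 0.05. Smoke alone lies well above 0 for Ccl2, Ccl3 and Ccl9 and near 0 for Ccl8 and Ccr2, no filled point of the middle panel is above 0, and the points of the interaction are all below 0.

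DEX was compared with its absence within each of the 4 exposures. Ccl8 was lower with DEX by a log2FC between -1.71 and -2.28 in all 8 comparisons, and passed the test in 7 of them. The eighth was PBS.AIR parenchyma, where it was at 0.883, 3.20 and 14.4 CPM without DEX and at 0.527, 0.98 and 1.07 with DEX, with an adjusted p of 0.056 from limma-voom, 3.6e-06 from edgeR and 1.6e-09 from DESeq2.

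In HDM.AIR mice Ccl8 was at 97.6, 143.03 and 244.2 CPM in the airways without DEX and at 17.7, 34.9 and 201.3 with DEX, a log2FC of -1.76 (adjusted p = 8.9e-08). In the parenchyma it was at 88.7, 130.9 and 307.8 and at 9.90, 32.7 and 135.2, a log2FC of -1.98 (7e-09). Each DEX group held 2 libraries well above its others, at 201.3 and 132.03 CPM in the airways, where the next was 57.2, and at 135.2 and 90.9 in the parenchyma, where the next was 57.3. These libraries made the groups overlap.

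Ccl12 was lower with DEX in HDM.AIR airways (log2FC -1.18, adjusted p = 0.0002) and parenchyma (-1.24, 9.2e-05), and in PBS.CS airways (-1.54, 0.0023) and parenchyma (-1.71, 0.00031). It was also lower in PBS.AIR airways (-1.27, 0.018). With HDM and smoke together its log2FCs were -0.46 and -0.67 and passed the test in neither tissue. Ccl7 was lower in HDM.AIR mice, by -1.12 in the airways and -1.04 in the parenchyma, though edgeR did not call it in the airways (-0.74, 0.073).

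In none of the 8 comparisons was Ccl2 lower with DEX past the threshold, and in HDM.CS parenchyma it was higher, at 4.14, 10.4 and 18.7 CPM without DEX and 12.3, 18.1 and 33.2 with DEX, a log2FC of 0.85 (adjusted p = 0.011, and 0.056 with edgeR). In PBS.CS parenchyma, where it was upregulated with smoke, its log2FC with DEX was 0.06, and its level was 8.71, 17.4 and 24.5 CPM without DEX and 10.6, 15.6 and 38.5 with DEX. In HDM.AIR mice its log2FCs were -0.20 and -0.40. Its level in PBS.AIR parenchyma was 0.576, 1.4 and 2.69 CPM without DEX and 1.78, 3.08 and 4.42 with DEX. That difference held the highest log2FC of Ccl2 among the 8 comparisons but did not pass with limma-voom. In this comparison edgeR and DESeq2 each gave 2 of the 9 genes higher, and limma-voom gave 3 higher at an unadjusted p under 0.05.

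Ccl3 was higher with DEX in HDM.AIR airways, at 5.51, 12.0 and 18.2 CPM without and 15.7, 22.3 and 31.9 with DEX, a log2FC of 0.89 (adjusted p = 0.00051). With limma-voom it passed the test in no other DEX comparison. In PBS.AIR mice its medians without and with DEX were 1.28 and 2.23 CPM in the airways and 2.00 and 3.86 in the parenchyma. Ccl4, next to Ccl3 on the chromosome, was lower in HDM.AIR parenchyma (-0.98, 0.00052), PBS.CS airways (-1.17, 0.022) and PBS.CS parenchyma (-1.25, 0.00062). Ccl9 was lower in HDM.AIR mice (-0.80 in the airways and -1.11 in the parenchyma), in PBS.CS parenchyma (-0.72) and in HDM.CS airways (-0.90).

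Ccr2 was at 131.7, 154.1 and 238.0 CPM in HDM.AIR airways and at 47.6, 80.6 and 128.6 with DEX, without overlap, a log2FC of -1.03 (adjusted p = 5e-06), and its parenchyma log2FC was -1.02 (8.9e-06). It was also lower with DEX in the airways of the other 3 exposures, by -0.61 in PBS.AIR, -0.61 in PBS.CS and -0.85 in HDM.CS. Ccr1 was lower in HDM.AIR parenchyma alone, by -0.48 (0.012).

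By exposure, in HDM.AIR mice 5 genes were lower (16.0% of all genes) and 1 higher (12.5%) with DEX in the airways, and 7 were lower (16.2%) in the parenchyma. In PBS.CS mice 4 genes were lower in the airways (6.6%) and 4 in the parenchyma (9.49%). In HDM.CS mice 3 were lower in the airways (7.05%), and in the parenchyma 1 was lower (5.4%) and 1 higher (2.46%). In PBS.AIR mice 3 were lower in the airways (6.85%), where edgeR and DESeq2 each gave 1 higher and 4 lower. In PBS.AIR parenchyma limma-voom gave 0 changed genes (22.6% of all genes changed), with 3 higher and 2 lower at an unadjusted p under 0.05, while edgeR and DESeq2 each gave 2 higher and 2 lower.

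Whether the effect of HDM differed with and without DEX was tested as an interaction of HDM and DEX. In the airways limma-voom gave 0 of the 9 genes (4.62% of all genes changed), with 1 lower at an unadjusted p under 0.05, and edgeR and DESeq2 gave 0. In the parenchyma 3 genes had a smaller HDM effect with DEX, where 6.38% of all genes were lower: Ccl9 by -1.52 (adjusted p = 0.00015), Ccr1 by -0.78 (0.013) and Ccr2 by -0.78 (0.039). Without the library of the lowest total, a DEX library of this comparison, Ccr2 had -0.71 (0.066).

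Of the 9 classical monocyte markers, 6 were lower with DEX in each tissue of HDM.AIR mice, and none was higher. Of all genes, 16.0% were lower there in the airways and 16.2% in the parenchyma. Their summed level had a median of 2331 CPM (966.2 to 8716) without and 2518 CPM (1417 to 4898) with DEX in the airways, and of 2785 and 3432 CPM in the parenchyma. Of 6 T cell markers, 5 were lower in the airways and 6 in the parenchyma of these mice. The median epithelial log2 ratio of the airway libraries was 0.707 without and 0.102 with DEX. The part of these values in the DEX results was not tested.

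**Figure D4:**
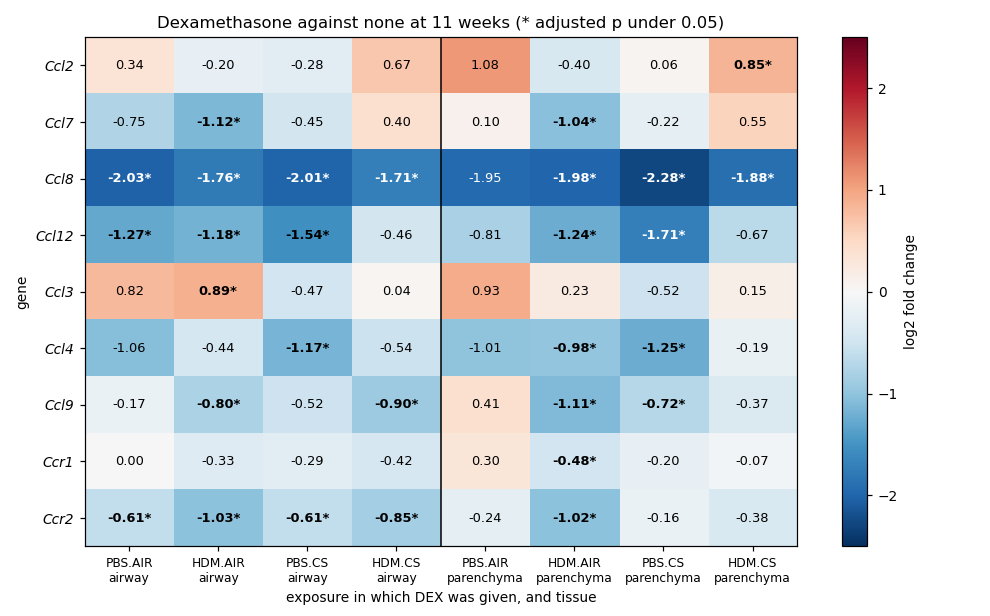
Heat map of the log2FC of DEX against no DEX for the 9 genes in the 4 exposures and both tissues, with the value in each cell and * for an adjusted p under 0.05. Ccl8 is lower in every column, Ccl2 lies between -0.40 and 1.08, and Ccr2 is lowest in the HDM.AIR columns.

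Ccl2 and Ccl8 were set side by side over the 20 groups as the pair of genes in the set whose group means were least alike. Over the group means, centred within each tissue, Pearson's r was 0.39 between them, against 0.893 between Ccl2 and Ccl7, 0.951 between Ccl8 and Ccl12 and 0.973 between Ccl9 and Ccr1. These values describe 20 group means of libraries that share exposures and carry no test. In PBS.CS.DEX parenchyma the median of Ccl2 was 15.6 CPM and that of Ccl8 0.743, whereas in HDM.AIR parenchyma the medians were 5.79 and 130.9.

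**Figure D5:**
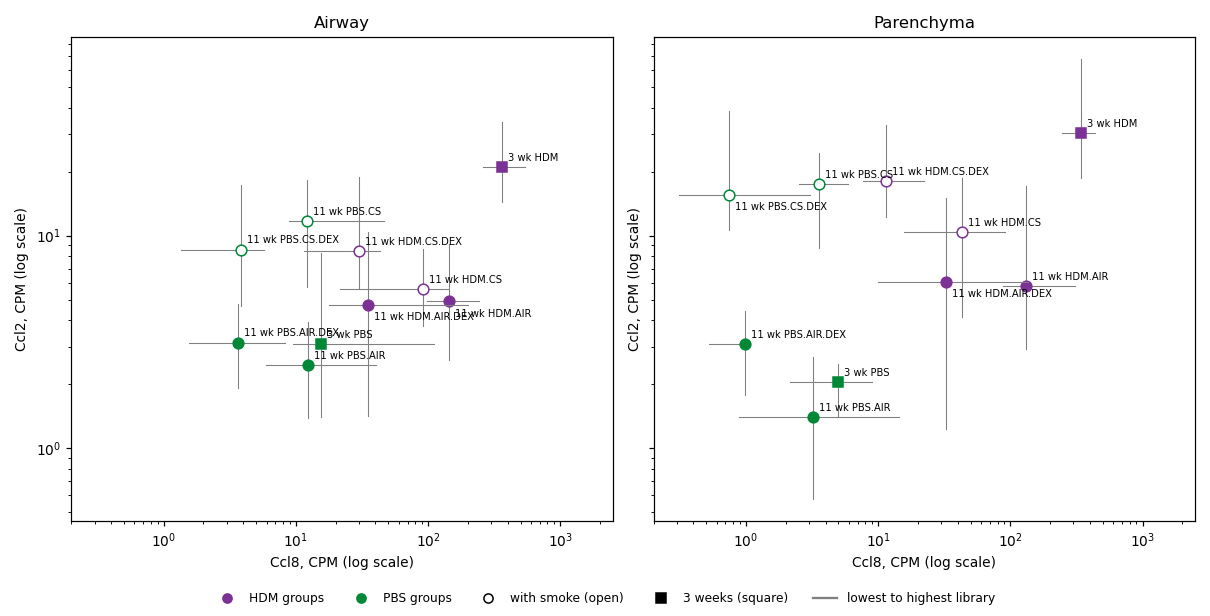
Median CPM of Ccl2 (y axis) against Ccl8 (x axis), both on log axes, in the 10 groups of each tissue, with bars from the lowest to the highest library. HDM groups lie to the right, with higher Ccl8. The smoke groups without HDM lie to the left with low Ccl8 and above PBS.AIR in Ccl2, and the HDM groups at 3 weeks lie high in both.

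The genes most like each member over the same 20 centred group means were, for Ccl2, Saa2 (r = 0.962), Adamts4 and Cxcl2, and for Ccl7, Timp1 (0.944), Arfgap3 and Qars. For Ccl8 they were Gpr65 (0.989), Blnk and A430093F15Rik, and for Ccl12 Fcgr1 (0.981), Mefv and Ptpn7. For Ccl3 they were Ch25h (0.9904), Slc26a4 and Chil1, for Ccl4 Tnfsf14 (0.983), Il1rn and Milr1, and for Ccl9 Nfkbie (0.992), Cxcl3 and Ceacam19. For Ccr1 they were Ms4a6d (0.989), Ceacam19 and Itgam, and for Ccr2 Clec12a (0.974), H2-DMb1 and A530032D15Rik. Saa2 encodes an acute phase protein, Fcgr1 the high-affinity IgG receptor of monocytes and macrophages, and Itgam the integrin CD11b.

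Within groups, pairs of these genes were compared from library to library. After each library's log2 CPM had been set against the mean of its group, Ccl2 and Ccl7 correlated over the airway libraries (1 group of 11 and 9 of 10) with r = 0.870 (rho = 0.847) and over the parenchyma libraries (1 group of 12 and 9 of 10) with r = 0.870 (rho = 0.833). For both, r was 0.856 and 0.843 without the 2 libraries farthest from the median of Ccl2. Ccl3 and Ccl4 had r = 0.786 in the airways and 0.721 in the parenchyma, and Ccl9 and Ccr1 had 0.726 and 0.660. Pairs of a ligand with Ccr2 were weaker, at r = 0.332 to 0.461 in the airways and 0.189 to 0.396 in the parenchyma, and within single groups their sign varied: for Ccl8 and Ccr2 r was above 0 in 8 of 10 airway and 6 of 10 parenchyma groups. Of 22 such relations, 21 passed after adjustment in permutation tests of 100000 permutations, whose smallest p, reached by Ccl2 with Ccl7, Ccl3 with Ccl4 and Ccl9 with Ccr1, is 1e-05. The exception was Ccl8 with Ccr2 in the parenchyma, at r = 0.189 (permutation test, adjusted p = 0.058) and rho = 0.187 (0.073). Libraries of one group can differ in cell makeup and epithelial ratio, whose part in these relations was not tested.

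The other genes of the CC chemokine family moved in both directions. Of 27 further CC chemokines and receptors, 18 rose and 6 fell in HDM-exposed airways at 3 weeks, with a median log2FC of 1.84, and 18 rose and 5 fell in HDM-exposed parenchyma, with a median of 2.43. Ccl1, a CCR8 ligand like Ccl8, rose most, by 4.30 and 5.48, followed by the eosinophil receptor Ccr3 in the airways (3.40) and Ccl22, a CCR4 ligand, in the parenchyma (4.46). Ccl1 was at 0 in every library of PBS.CS.DEX airways at 11 weeks, so its large log2FCs can rest on few counts in the controls. The scavenging receptor Ackr4 and the skin and mucosal chemokine Ccl27a fell, by -1.79 and -1.82 in the airways. At 11 weeks 15 rose and 6 fell in the airways and 17 rose and 4 fell in the parenchyma, and the CCR7 ligand Ccl19 was among the largest, at 3.35 and 5.62. Of all genes, 5923 (airways) and 5808 (parenchyma) of 17377 rose at 3 weeks, and 5716 and 5951 of 18250 at 11 weeks. In the same order, 7035 and 7691 of all genes fell at 3 weeks, and 5432 and 4907 at 11 weeks.

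With smoke alone, 8 of the 27 rose in each tissue, with none lower in the airways and 4 lower in the parenchyma, where the CCR6 ligand Ccl20 rose by 3.03 and Ccl17 by 2.61 while Ccl5 fell by 1.5. Of all 18250 genes, 1398 rose and 1101 fell with smoke alone in the airways, and 3237 rose and 3319 fell in the parenchyma. With smoke added to HDM, 10 of the 27 were lower in each tissue and 1 (airways) and 3 (parenchyma) were higher. Of all genes, 10.1% were lower and 6.07% higher in the airways, and 14.1% were lower and 10.0% higher in the parenchyma. With DEX in HDM.AIR mice, 15 were lower and 1 higher in the airways and 18 were lower and 1 higher in the parenchyma. Of all genes, 16.0% were lower and 12.5% higher in the airways of these mice. In the parenchyma 16.2% of all genes were lower, and 2235 of 18250 were higher. Of 10 cytokines that act upstream of these chemokines, 9 rose with HDM in both tissues at both times and none fell, among them Il13 (4.93 in the airways and 5.06 in the parenchyma at 3 weeks) and Tnf (3.01 and 3.99). Il13 was at 0 in every library of PBS.AIR.DEX parenchyma, so its log2FCs can also rest on few counts in the controls. With smoke alone 5 rose and 1 fell in the airways and 7 rose and 1 fell in the parenchyma, among them Tnf (2.53) and Csf2 (2.11).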

How the data were processed

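RNA-seq libraries of airways and lung parenchyma were compared in 20 groups of week, tissue and exposure, grouped by their titles. The authors deposited 1 table of estimated counts per gene, per the labels and the paper from 100-base single reads aligned to mm10 with STAR 2.5.1b and quantified with RSEM 1.2.31 and kallisto 0.44.0, without scaling for depth or length. Which of these quantifiers made the table, and whether strand was used, is not given in the sources used here. Since 20.3% of values above 0 lay over 0.005 from a whole number, counts were rounded before testing. Reads that match several genes are shared out, so Ccr2, whose counts were mostly not whole, is uncertain. Of 43346 identifiers, 42462 matched GENCODE M21 without their version suffix. No pair of libraries of 1 group agreed within sampling noise: chi-square per degree of freedom over genes was at least 9.58.

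Genes that reached, in 9 or more libraries, a CPM worth 10 counts at the median depth were fitted with limma-voom 3.58.1 and TMM factors of edgeR 4.0.16 (R 4.3.3), at 3 weeks, at 11 weeks, and over both for differences between weeks. Adjusted p-values are Benjamini-Hochberg values over all genes tested in a contrast, and 27 contrasts were made. HDM.AIR and PBS.CS share the PBS.AIR control. Other settings tried were the quasi-likelihood test of edgeR, DESeq2 1.42.0, its size factors in voom, a filter at 10 CPM, no filter and 1 fit of all libraries. A further 3 were chosen after seeing the data: leaving out 9 airway libraries of low epithelial ratio, leaving out libraries X173 and X174, and leaving out the library of the lowest total. One further result is not reported here. Correlations within groups were tested with 100000 permutations (Python 3.11.15, numpy 2.4.6). The scripts were tested on simulated data. The genes named are the 9 listed genes, the 3 genes most like each of them, and at most 2 per direction of the listed CC chemokines, receptors and cytokines. Genes and marker lists were chosen with earlier results of these data known. The dose of DEX is not given in the sources used here.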

Additional observations from a re-analysis of the deposited data

Results flagged for a closer look

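For the 9 genes in the 18 groups of 10 libraries, 11 times 1 library stood apart from the others of its group, and chance alone gives about 1 in 20. In HDM-exposed parenchyma at 3 weeks, Ccr2 was 171.1 CPM in X164 and 224.3 to 294.0 in the others. In HDM.CS airways library X57 was low in both Ccl8, at 21.6 CPM against 58.4 to 140.8, and Ccl12, at 3.04 against 5.52 to 9.96. Library X174 held 46.1 CPM of Ccl8 in PBS.CS airways, where the others held 8.84 to 18.4, and without it and X173 the log2FC of smoke was -0.25. Ccl7 was 7.74 CPM in X115 of PBS.CS.DEX airways against 2.01 to 3.78, and 16.8 in X116 of PBS.CS.DEX parenchyma against 2.68 to 5.51. Ccl3 was 0.502 CPM in X5 of PBS.AIR airways against 1.04 to 1.89, and 5.51 in X89 of HDM.AIR airways against 10.7 to 18.2. Ccl4 was 3.06 CPM in X94 of PBS.CS parenchyma against 6.01 to 10.2. Ccr2 was 30.8 CPM in X167 of PBS.AIR.DEX airways against 46.3 to 71.6, and Ccl9 was 152.8 CPM in X200 of HDM.CS.DEX parenchyma against 186.1 to 233.0.

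Effects differed between tissues, weeks or exposures by the test of the difference itself in 34 of 81 tests, and all 34 differences were below 0. In the contrasts that held them, 3.04% (smoke between tissues) to 20.9% (HDM between weeks in the parenchyma) of all genes were lower. At 3 weeks the HDM effect in airways minus that in parenchyma was -1.29 for Ccl2, -1.55 for Ccl7, -1.96 for Ccl8, -1.02 for Ccl12, -1.03 for Ccl9 and -0.39 for Ccr2 (log2FC). At 11 weeks it was -1.42 for Ccl7, -2.05 for Ccl8 and -0.91 for Ccl9, and for smoke it was -1.41 for Ccl9. The HDM effect at 11 weeks minus that at 3 weeks was -1.79 for Ccl2, -1.74 for Ccl7 and -0.94 for Ccl12 in the airways, and -1.81 for Ccl2, -1.94 for Ccl7, -0.70 for Ccl9 and -0.91 for Ccr1 in the parenchyma. The HDM by smoke interaction was -1.82 for Ccl2, -2.44 for Ccl3, -1.90 for Ccl4, -1.73 for Ccl9 and -1.13 for Ccr1 in the airways. In the parenchyma it was -3.02 for Ccl2, -2.37 for Ccl7, -1.86 for Ccl8, -1.91 for Ccl12, -3.15 for Ccl3, -2.80 for Ccl4, -3.50 for Ccl9, -1.73 for Ccr1 and -0.76 for Ccr2. The HDM by DEX interaction in the parenchyma was -1.52 for Ccl9, -0.78 for Ccr1 and -0.78 for Ccr2.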

How the results depend on the processing

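No result changed direction past the threshold. No paired analysis was possible because each library carries its own code and no number is shared between groups. The number of the 9 genes up- or downregulated (for differences between tissues or weeks, changed) moved by over 1.5 times in 8 comparisons, and the cause was not tested. It was 2 for DEX in HDM.AIR airways (4 with limma-voom) and 2 for DEX in HDM.AIR parenchyma (5) with both edgeR and DESeq2. For DEX in PBS.AIR parenchyma it was 1 with edgeR, with DESeq2 and without the 9 airway libraries of low epithelial ratio (0 with limma-voom). For the tissue difference of smoke it was 2 with edgeR and 3 with DESeq2 (1), for that of HDM at 11 weeks 5 with DESeq2 (3), and for the difference between weeks in the parenchyma 7 with DESeq2 and 2 with the filter at 10 CPM (4). That filter also gave 1 for DEX in PBS.AIR airways (2) and 1 for airways against parenchyma in PBS.AIR (2). Of 243 tests of single genes, 219 stayed on the same side of the threshold with edgeR, 219 with DESeq2, 228 with the filter at 10 CPM, 240 without a filter, 240 without the 9 airway libraries and 243 with DESeq2 size factors in voom. Without libraries X173 and X174 all tests at 11 weeks did so. Low counts limit 6 of the ligands, whose lowest library held 18 counts of Ccl2, 14 of Ccl3, 12 of Ccl12, 11 of Ccl7, 8 of Ccl8 and 3 of Ccl4.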

Other observations

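In HDM.AIR mice given DEX, the 2 airway libraries with the most Ccl8 (X11 and X131) were also high in Ccl12, at 14.9 and 15.95 CPM against 5.4 in the airway library next in Ccl8 (X71). X11 had the lowest epithelial log2 ratio of all airway libraries, at -0.71, and X11 and X71 were among the 9 of low epithelial ratio. The 2 parenchyma libraries with the most Ccl8 (X12 and X132) held 19.6 and 16.3 CPM of Ccl12 against 7.38 in the next. These libraries were picked by their level of Ccl8, so the values are a description. All 4 stayed in every comparison, apart from X11 in the setting without the airway libraries of low epithelial ratio.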
